A study of Mus musculus with 2 samples.

Results

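Thick ascending limb cells of the mouse kidney after ischemia-reperfusion injury (IRI) were described in 2 single-cell libraries. The cells were chosen by their own counts of unique molecular identifiers (UMIs), the molecules counted per gene and barcode. A barcode was taken if it had at least 1000 UMIs, at most 50% of them mitochondrial, at least 1 UMI of Slc12a1, at least 10 UMIs and 0.5% of its UMIs from Umod and Slc12a1 together, and under 0.3% from Slc12a3 and Calb1. This gave 46 cells of 3093 barcodes in the saline library and 67 of 3984 in the JPI-289 library, 113 of 7077 in all. Both libraries came from male C57BL/6 mice aged 9 weeks with bilateral renal IRI, killed at 24 h. The saline mouse received the vehicle and the JPI-289 mouse 100 mg/kg of this inhibitor of poly(ADP-ribose) polymerase, given into the peritoneum before reperfusion. Each condition has 1 library and no uninjured mouse was analysed here, so no test between conditions was possible, and every difference is one between these libraries. Intervals are 95% exact intervals for counting error only.

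The thick ascending limb reabsorbs sodium chloride without water. NKCC2, encoded by Slc12a1, carries sodium, potassium and chloride in from the lumen, ROMK (Kcnj1) returns potassium, and the sodium pump, with its beta subunit Atp1b1 and its modulator Fxyd2, drives the process. The segment also makes uromodulin (Umod), the most abundant protein of normal urine, and takes up calcium and magnesium through claudin pores between its cells. It works at low oxygen tension in the outer medulla and its cells hold many mitochondria.

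The saline cells had 311822 UMIs in all, with a median of 5575.5 per cell (1033 to 19673), and the JPI-289 cells 427532, with a median of 5479 (1159 to 18309). The median number of genes was 1812 and 1770. Mitochondrial genes took a median of 7.16% of the UMIs of the saline cells and 12.4% of the JPI-289 cells, against 3.64% and 3.2% over all barcodes that passed the depth and mitochondrial limits. Over 20% mitochondrial UMIs were found in 7 saline and 17 JPI-289 cells. No cell barcode was shared between the cells of the libraries, and 14 were shared among all barcodes that passed. The share of cells was 1.49% (1.09 to 1.98) and 1.68% (1.31 to 2.13), and no direction can be read from it because the genes that chose the cells differed between the libraries.

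Umod (ENSMUSG00000030963, chromosome 7 from 119462711 to 119479282 of GRCm38) and Slc12a1 (chromosome 2 from 125152505 to 125230002) chose the cells, so their values are a description. Umod had 3815 UMIs in the saline and 6106 in the JPI-289 cells, a level of 122 (118 to 126) and 143 (139 to 146) UMIs per 10000. Slc12a1 had 417 and 137 UMIs, a level of 13.4 (12.1 to 14.7) and 3.2 (2.69 to 3.79). The median cell held 12 UMIs of Slc12a1 per 10000 with saline and 2.69 with JPI-289, and the cells overlapped, from 0.662 to 55.3 and from 0.739 to 39.9. Just inside the limit of 0.5%, the cells had 0.504% and 0.521% of their UMIs from the pair of genes, and just outside it 0.491% and 0.475%.

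Because a UMI of Slc12a1 was required, cells were also chosen by Umod alone, which leaves Slc12a1 free to vary. This gave 54 saline and 147 JPI-289 cells, of which 11 and 84 had no UMI of Slc12a1. In them Slc12a1 had 371 and 116 UMIs, a log2 ratio of JPI-289 over saline of -2.83 (-3.15 to -2.53). Over all barcodes of each library Slc12a1 had 1403 and 337 UMIs, a log2 ratio of -1.95 (-2.12 to -1.78), while Umod had 12553 and 17561, a ratio of 0.59. In such sums fewer cells and less RNA per cell cannot be told apart. Among the cells that carried Umod, the requirement of Slc12a1 kept 79.6% of those from the saline and 42.9% of those from the JPI-289 library, which are 43 and 63 of the cells described here. The other 3 and 4 cells passed only with the UMIs of Slc12a1 added to those of Umod.

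**Figure D1:**
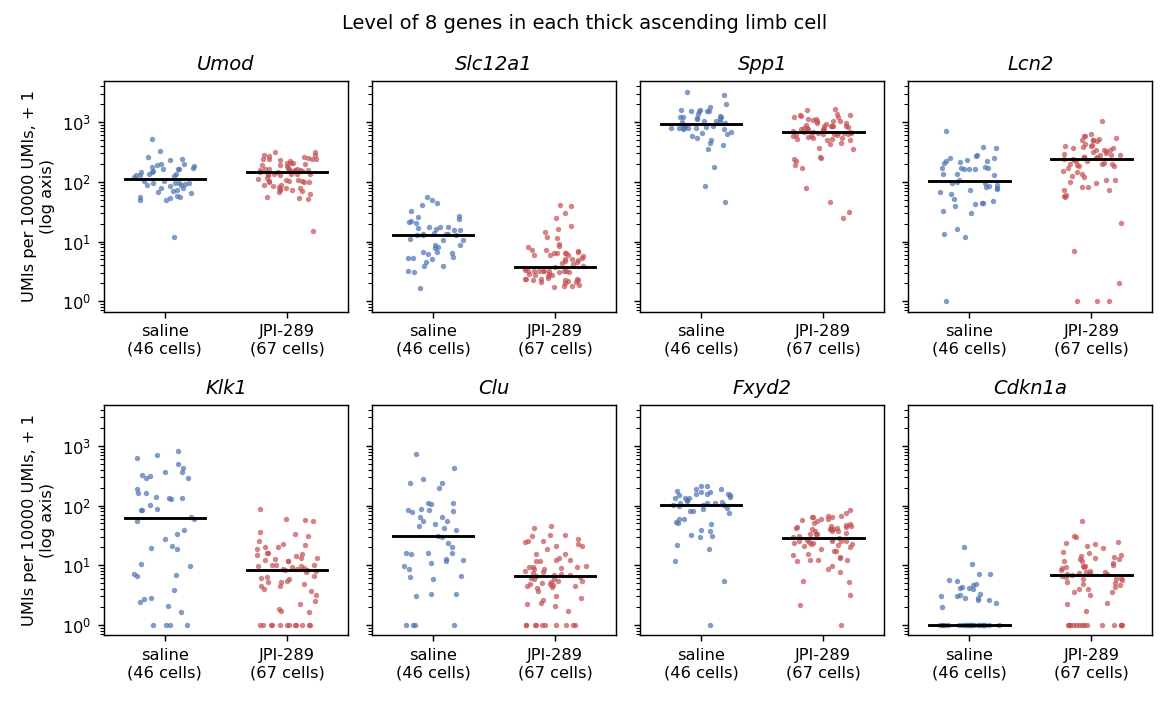
Level of 8 genes in each thick ascending limb cell, as UMIs per 10000 UMIs of the cell plus 1 on a log axis, with saline cells (46) in blue, JPI-289 cells (67) in red and the median as a black line. Umod and Slc12a1 chose the cells. Klk1, Clu and Fxyd2 have lower medians in the JPI-289 cells and Lcn2 and Cdkn1a higher ones, and in Spp1 the cells of both libraries spread downwards from their medians.

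The label was checked first against genes that the rule did not use. Of 15 other markers of the segment 14 had a higher level in the saline cells than in the other saline barcodes, and 15 in the JPI-289 cells. The share of all genes with a higher level in these cells was not computed, so these counts are a description. Tmem52b was lower in the saline cells, at 0.0641 against 0.25 UMIs per 10000, and Foxq1 was at 0.385 against 0.308. In the JPI-289 cells Tmem52b was at 0.0702 against 0.0434. Bsnd with 4 and 1 UMIs, Tmem52b with 2 and 3 and Enox1 with 3 and 3 are too few to read. Ppp1r1a and Wfdc15b were at 6.16 and 4.04 UMIs per 10000 in the saline cells, against 0.324 and 0.21 in the other saline barcodes. In the JPI-289 library they were at 3.34 and 2.81 in these cells and at 0.265 and 0.144 elsewhere. After thinning each cell to 1000 UMIs, Ppp1r1a was found in 41.3% and 23.9% of cells, and in 1.78% and 0.357% of neutrophil barcodes, which should lack it and had a median of 2235 and 2265.5 UMIs. It is not particular to these cells, since the distal convoluted and connecting tubule barcodes held 4.87 and 2.69 UMIs of it per 10000, and 1.33 and 0.369 of Wfdc15b. Markers of other cells were low. The 6 markers of the distal convoluted and connecting tubule had 3 and 4 UMIs in all, each of them from Slc12a3 or Calb1, which the rule limited, and Pvalb, Slc8a1, Trpm6 and Trpv5, which it did not use, were at 0. The 6 principal cell markers had 8 and 7 UMIs, led by Aqp2, the 5 lymphocyte markers none, and the 6 neutrophil markers 2 and 7, of which S100a9 had 0 and 5. The 10 proximal tubule markers had 144 and 170 UMIs, led by Kap with 40 and 109. The 6 endothelial markers had 8 and 37, of which Emcn had 0 and 16. No cell met the rule for proximal tubule, principal cells, neutrophils or endothelium.

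Cldn16 and Cldn19, whose claudins form the cation pore of the cortical limb, and Cldn10, whose product forms the sodium pore of the medullary limb, were used to see where the cells may lie. Among the saline cells 6 had a UMI of the cortical claudins only, 8 of Cldn10 only, 20 of both and 12 of neither, and among the JPI-289 cells the numbers were 18, 12, 9 and 28. Cells with neither claudin were shallow, with a median of 2578 and 2257.5 UMIs against 7537 and 7934 for those with both, so these shares are not read as numbers of cortical and medullary cells. As levels, Cldn10 was at 2.41 and 1.54 UMIs per 10000, Cldn19 at 1.35 and 0.912 and Cldn16 at 0.481 and 0.374. The macula densa genes Nos1, Ptgs2, Pappa2 and Avpr1a had no UMI in either library.

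Over all genes with at least 20 UMIs in these cells, 4370 genes without the 4 of the rule, the log2 ratio of JPI-289 over saline had a median of 0.019, with quartiles at -0.46 and 0.58. Of these genes 2224 were higher and 2146 lower in the JPI-289 cells. A level 2-fold or more higher was found for 531 genes (12.2%) and 2-fold or more lower for 437 (10.0%). These shares are the background against which the lists below are read. The lists were chosen with earlier results of these data known and are described, not tested.

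Salt transport genes other than Slc12a1 were mostly lower in the JPI-289 cells. Of 12 genes 9 had enough UMIs, of which 8 were lower and 4 were so by 2-fold or more (Kcnj1, Fxyd2, Kcnj16 and Slc4a2), while Slc9a3 was 2-fold higher, and the median log2 ratio was -0.90. Kcnj1, the potassium channel ROMK, had 74 UMIs in 31 of the saline and 14 UMIs in 10 of the JPI-289 cells, a log2 ratio of -2.82 (-3.80 to -2.02). At 1000 UMIs per cell it was found in 26.1% of saline and 0 of 67 JPI-289 cells, which allows up to 4.48% of cells with a UMI at that depth and says nothing of the 10 cells with one at full depth, and in 0% and 0.179% of neutrophils. Fxyd2, the gamma subunit of the sodium pump, had 3336 and 1327 UMIs, a log2 ratio of -1.78 (-1.88 to -1.69). The median cell was at 101 UMIs of Fxyd2 per 10000 with saline and at 27.5 with JPI-289, so the median JPI-289 cell lay below the lower quartile of the saline cells, 50.2. The beta subunit of the pump, Atp1b1, had 1064 and 816 UMIs and a ratio of -0.84 (-0.97 to -0.71).

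Slc9a3, the sodium-proton exchanger NHE3 of the luminal membrane, went the other way, with 44 UMIs in 18 saline and 211 in 46 JPI-289 cells, a log2 ratio of 1.79 (1.33 to 2.31). It had no UMI in neutrophils at the thinned depth. Kcnj16, a potassium channel of the blood side, had 93 and 47 UMIs, a ratio of -1.43 (-1.98 to -0.92), and Bsnd, encoding barttin, only 4 and 1. The plot of levels by gene shows NHE3 as the only salt transport gene drawn whose interval lies wholly higher with JPI-289.

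**Figure D2:**
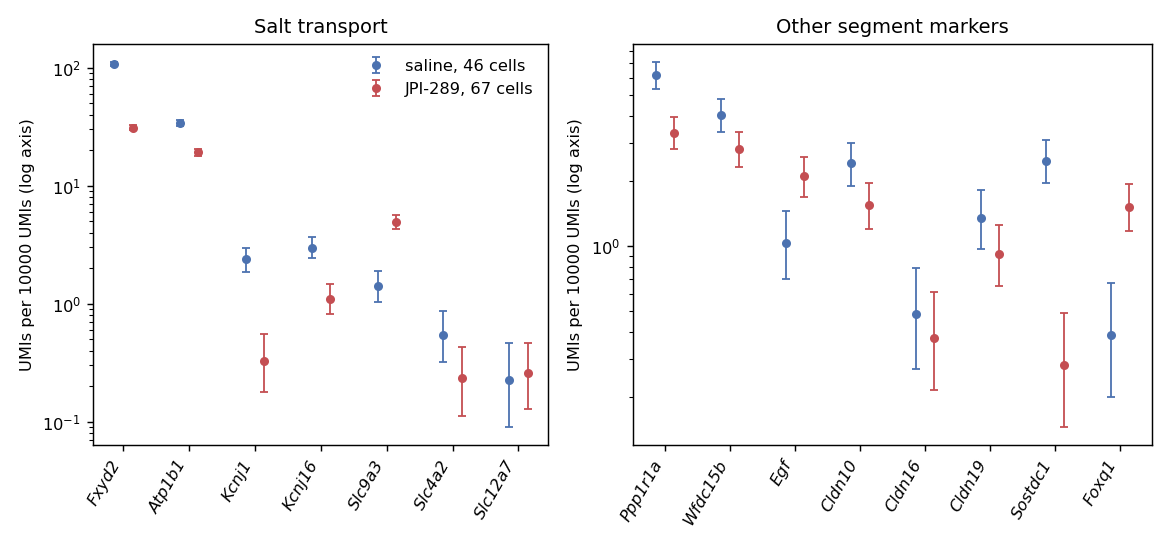
Level of salt transport genes (left) and other markers of the segment (right) in thick ascending limb cells, as UMIs per 10000 UMIs summed over the cells of a library on a log axis, with 95% exact Poisson intervals for counting error. Blue points are saline (46 cells) and red points JPI-289 (67 cells). Kcnj1 at 2.37 and 0.327 and Sostdc1 at 2.47 and 0.281 are lower with JPI-289, and Slc9a3 at 1.41 and 4.94 and Foxq1 at 0.385 and 1.52 are higher.

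Of the 15 markers of the segment outside the rule, 12 had enough UMIs and 10 of these were lower with JPI-289, with a median log2 ratio of -0.59. Kcnj1 and Sostdc1 were lower by 2-fold or more and Egf and Foxq1 higher. Sostdc1, a secreted antagonist of bone morphogenetic protein and Wnt signals, had 77 UMIs in 22 cells and 12 in 8, a log2 ratio of -3.09 (-4.15 to -2.25). Egf, the precursor of epidermal growth factor made in this segment and in the distal convoluted tubule, had 32 and 90 UMIs, a ratio of 1.02 (0.44 to 1.67), which was 0.51 in the cells with at most 20% mitochondrial UMIs. Foxq1, a forkhead transcription factor, had 12 UMIs in 7 cells and 65 in 21, a ratio of 1.93 (1.08 to 3.01), which was 0.91 in cells with at least 1% of Umod and Slc12a1 and 0.98 in those chosen by Umod alone, both under 2-fold.

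Transcription factors of the nephron also differed. Of 17 listed genes 13 had enough UMIs, with a median log2 ratio of -0.84, and 5 were 2-fold or more lower (Tfcp2l1, Tfap2b, Irx1, Esrra and Pax2) and 1 higher (Foxq1). Tfcp2l1, a factor of the distal nephron and collecting duct, had 135 UMIs in 32 saline and 14 UMIs in 12 JPI-289 cells, a ratio of -3.68 (-4.63 to -2.93). Free RNA, taken from barcodes under 100 UMIs, held 3.08 and 0.698 UMIs of it per 10000, against 4.33 and 0.327 in the cells. With free RNA subtracted, at 1.69% of the UMIs of the saline and 2.34% of the JPI-289 cells by haemoglobin, neutrophil and endothelial genes, the ratio of Tfcp2l1 was -3.72. Tfap2b, a factor of distal nephron development, had 50 and 13 UMIs, Irx1 58 and 20, and Esrra, a nuclear receptor that acts on mitochondrial genes, 23 and 5. Pax8 had 38 and 43 UMIs, a ratio of -0.28 (-0.94 to 0.39).

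Of 21 receptors and kinases that act on salt transport 16 had enough UMIs, with a median log2 ratio of -0.28. Stk39, the kinase SPAK that phosphorylates NKCC2, and Wnk4, which acts on SPAK, were 2-fold lower, with 38 and 19 and with 58 and 38 UMIs. Nedd4l, a ubiquitin ligase, was 2-fold higher, with 18 and 56. Its ratio of 1.16 (0.39 to 2.04) was 0.56 thinned to 1000 UMIs per cell, under 2-fold. Among 13 tight junction genes the median of the 9 with enough UMIs was -0.01, with Cldn3 lower (48 and 20 UMIs) and Ocln higher (4 and 16). The interval of the ratio of Ocln, 1.42 (-0.09 to 3.58), held 0, and the ratio was 0.43 in cells chosen by Umod alone. Of 6 genes of osmolyte accumulation, Slc5a3, the myo-inositol carrier, had 358 and 329 UMIs and Nfat5, the tonicity factor, 9 and 30.

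Klk1 (chromosome 7 from 44225360 to 44229618), tissue kallikrein, a kinin-releasing protease known from the connecting tubule, had the lowest ratio of all named genes. It had 4781 UMIs in the saline and 404 in the JPI-289 cells, a log2 ratio of -4.02 (-4.17 to -3.87), or 16.2-fold lower. In 19 of 46 saline cells and in 0 of 67 JPI-289 cells it made up 1% or more of the UMIs, and the largest count in a cell was 629 and 46. In the 19 cells Pvalb, Slc8a1, Trpm6 and Trpv5 had no UMI. The levels of Slc12a1, Umod, Slc12a3 and Calb1 in them were set in part by the rule. Klk1 spanned 1.01% to 8.29% of UMIs in the 19 cells and 4 saline cells lay between 0.8% and 1.2%, so they are a range and not a type. In the distal convoluted and connecting tubule barcodes, 62 and 44 in number, Klk1 was at 54 and 77.6 UMIs per 10000, a log2 ratio of 0.52 (0.42 to 0.63). In principal cell barcodes it had 662 and 102 UMIs, a ratio of -3.04 (-3.36 to -2.74). Free RNA held 12.9 and 9.54 UMIs of Klk1 per 10000. The level in the JPI-289 cells, 9.45 (8.55 to 10.4), was close to that of free RNA, and with free RNA subtracted the log2 ratio of Klk1 was -4.04.

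Clu, encoding the chaperone clusterin that is raised in injured tubules, had 2775 and 419 UMIs, a log2 ratio of -3.18 (-3.33 to -3.03). A single saline cell held 35.9% of them, and without the cell with most UMIs in each library the ratio was -2.75. The median cell was at 29.5 UMIs per 10000 with saline and 5.65 with JPI-289. Free RNA held 10.5 and 8.78 UMIs of Clu per 10000, close to the 9.8 of the JPI-289 cells, and with it subtracted the ratio was -3.20. S100g, a calcium-binding protein of the distal nephron, had 336 and 80 UMIs, a ratio of -2.52 (-2.90 to -2.17). Gdf15, a stress-induced growth factor, had 132 and 29 UMIs but in only 16 and 7 cells, a ratio of -2.62 (-3.27 to -2.05). In distal convoluted and connecting tubule barcodes Gdf15 had 256 and 7 UMIs, a ratio of -4.55 (-5.97 to -3.58). In principal cells its ratio was -0.50 (-0.62 to -0.37). The other genes with the lowest ratios were Sec14l1, Tesc, Ckmt1, Ethe1, Ccn1, Ccn2 and Eprn, from -2.98 to -1.97. Ckmt1 encodes a mitochondrial creatine kinase and Ethe1 a mitochondrial sulfur dioxygenase. Ccn1 and Ccn2 rest on few cells and are positive, 0.58 and 2.63, in cells with at least 1% of Umod and Slc12a1.

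The genes of the injury list did not move together. Of 29 genes 20 had enough UMIs, 3 were 2-fold or more higher (Lcn2, Fga and Fgg), 4 lower (among them Clu, Cryab and Anxa1), and the median log2 ratio was -0.28. Lcn2, lipocalin 2, a secreted iron-carrier protein used as a urinary marker of tubule injury, had 4018 UMIs in 45 saline and 11566 UMIs in 64 JPI-289 cells, a level of 129 (125 to 133) and 271 (266 to 276) per 10000 and a log2 ratio of 1.07 (1.02 to 1.12). Neutrophils also make it, and their 6 markers had 2 and 7 UMIs in these cells, while free RNA held 13.9 and 22.4 of Lcn2 per 10000. Weighing each cell the same gave 0.86. Spp1, osteopontin, a secreted phosphoprotein, had 30552 and 32326 UMIs, a level of 980 (969 to 991) and 756 (748 to 764) and a ratio of -0.37 (-0.40 to -0.35). Havcr1, the proximal tubule injury marker, had 2 and 4 UMIs. Fga and Fgg, fibrinogen chains, had 7 and 52 and 13 and 59 UMIs. Fga was at 0.224 and 1.22 per 10000 in the cells and at 1.93 and 7.45 in free RNA, and its ratio was 2.35 before and after free RNA was subtracted.

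The share of UMIs from Spp1 varied among the cells of each library, from 0.454% to 32.5% with saline and from 0.237% to 16.6% with JPI-289. With a limit of 2%, set after the data were seen, 3 saline and 6 JPI-289 cells lay below it. Between 1.5% and 3% there were 1 and 6 cells, so in the JPI-289 library the limit cuts through a range. Clu was lower in the cells below it, at 5.88 against 91.3 UMIs per 10000 with saline and at 4.67 against 10.2 with JPI-289. Lcn2 was at 24.7 against 132 and at 104 against 282. Egf was at 9.41 against 0.791 and at 6.11 against 1.83, on 8 and 17 UMIs below the limit. A single JPI-289 cell with 1.67% Spp1 held 14 of those 17 UMIs of Egf and 258 of the 289 of Lcn2, and without it the other 5 were at 1.98 for Egf and 20.4 for Lcn2. A single saline cell held 5 of the 8 UMIs of Egf and none of Lcn2, and without it the other 2 were at 7.32 for Egf, 51.2 for Lcn2 and 9.76 for Clu. Slc12a1 is not compared here, because 1 saline and 3 JPI-289 cells below the limit had under 10 UMIs of Umod and passed the rule only with Slc12a1. The cells below the limit were shallower, with a median of 2780 and 1986.5 UMIs. Their median mitochondrial share was 3.72% against 7.39% with saline and 21.6% against 11.6% with JPI-289. The part of depth and of this share was not tested.

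Cdkn1a (chromosome 17 from 29090976 to 29100727), encoding the cyclin-dependent kinase inhibitor p21, had 55 UMIs in 22 of 46 saline cells and 373 in 53 of 67 JPI-289 cells. This is a level of 1.76 (1.33 to 2.3) and 8.72 (7.86 to 9.66) per 10000 and a log2 ratio of 2.30 (1.89 to 2.74). At 1000 UMIs per cell it was found in 10.9% and 55.2% of cells, and in neutrophils, which need not lack it, in 33.7% and 30.9%, so the saline share lies below that of neutrophils. Free RNA held 1.63 and 5.29 UMIs of it per 10000, also higher in the JPI-289 library, and with free RNA subtracted the ratio of Cdkn1a was 2.31. The distal convoluted and connecting tubule barcodes had 28 and 143 UMIs, a ratio of 2.88 (2.31 to 3.54), and the principal cell barcodes 66 and 363, a ratio of 2.11 (1.73 to 2.52). Of 22 cell cycle genes only 7 had enough UMIs, and Mki67, Cdk1, Ccnb1 and Ccnb2 had none. Parp1, which encodes the main target of PARP inhibitors, had 2 and 6 UMIs, too few to compare, and of 19 genes of this family and of NAD metabolism 3 had enough UMIs, with a median of -0.05.

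Among the genes with the highest ratios, Map1lc3b, which encodes an autophagosome protein, had 35 UMIs in 20 cells and 302 in 57, a log2 ratio of 2.64 (2.15 to 3.20). Pim3, a serine-threonine kinase, had 34 and 308 UMIs, Per1, a circadian clock gene, 14 and 104, Srsf5, a splicing factor, 27 and 168, and Herpud1, of protein degradation at the endoplasmic reticulum, 50 and 250. Cebpd, a transcription factor of the acute phase response, had 45 and 257 UMIs and Tacc1 20 and 98. These 7 genes had ratios from 1.81 to 2.71 and kept a ratio of 2-fold or more in the 14 alternatives of processing that could move a gene's ratio. Those alternatives reuse the same UMIs and are no independent support. Each of the 7 had at most 50 UMIs in the saline cells. They reached the minimum of 100 UMIs for naming only with the UMIs of the JPI-289 cells. Pim3, Map1lc3b, Per1 and Srsf5 were also higher in distal convoluted and connecting tubule barcodes, with ratios of 1.75, 1.41, 2.82 and 1.15. In principal cells their ratios were 1.38, 0.52, 2.24 and 1.53. In the same 2 classes Herpud1 was at 1.65 and 0.49, Tacc1 at 0.41 and 0.50 and Cebpd at 0.94 and -0.45. Ctla2a and Aqp1 had still higher ratios in the cells described here, 6.26 and 5.91, but rest on few cells. A single JPI-289 cell held 218 of the 262 UMIs of Ctla2a and 117 of the 123 of Aqp1, with 8 of Emcn, an endothelial sialomucin. Without this cell and the next in Ctla2a, the ratio of Aqp1 was -0.38 and that of Ctla2a 2.06.

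Inflammatory and interferon genes with enough UMIs were few. Those 2-fold higher with JPI-289, Cxcl10, Nfkbia, Ifit1, Isg15 and Stat2, each had under 20 UMIs in the saline cells. They reached the minimum only through the JPI-289 library, so no direction is read from these lists. Of 22 inflammatory genes 8 had enough UMIs, with a median log2 ratio of 0.58, and Cxcl10 and Nfkbia were 2-fold higher, whereas Ccl2, Ccl20, Il6 and Il18 had no UMI. Nfkbia, the inhibitor of NF-kB that NF-kB itself induces, had 16 UMIs in 9 cells and 97 in 23, a ratio of 2.11 (1.37 to 3.01), and 13 and 66 UMIs in distal convoluted and connecting tubule barcodes. Cxcl10, an interferon-induced chemokine, had 15 and 157 UMIs, but 2 JPI-289 cells held 81 and 51 of them, and without these the ratio was 0.34. Of 19 interferon and antigen presentation genes 8 had enough UMIs, 7 were higher, Ifit1, Isg15 and Stat2 by 2-fold or more, and the median was 0.90. Ifit1 had no UMI in saline and 58 in 12 JPI-289 cells, with a lower limit of 3.47 for its log2 ratio by the exact interval, and the same 2 cells held 12 and 25 of them. These 2 cells also held 30 of the 57 UMIs of Isg15 and 20 of the 28 of Stat2, and without them the ratios were 0.65 and 0.54, under 2-fold, and the median of the list was 0.65. H2-D1, a class I antigen presentation gene, had 42 and 110 UMIs, a ratio of 0.92 (0.41 to 1.48).

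The 24 genes with the highest and lowest ratios were looked up among the RefSeq promoters (GRCm38.p6, 250 bases before to 50 after each start), and 10 of the 12 highest and 10 of the 12 lowest matched by symbol. These windows were searched on both strands for the letters of 7 motifs. GGGANTTTCC, bound by NF-kB, stood in 0.411% of all 32851 promoters and here in that of Nfkbia. TTTCNNTTTC, of the interferon-stimulated response element, stood in 3.44% of all and here in those of Cxcl10 and Sec14l1. TGANTCA, bound by AP-1, stood in 7.81% of all and here in those of Ctla2a, Cxcl10 and Sec14l1, and the E box CACGTG in 7.15% of all and here in those of Per1 and Gdf15. TGACGTCA, GNACANNNTGTNC and GAANNTTCNNGAA, of the cyclic AMP, glucocorticoid and heat shock elements, were in none of these windows and in 1.79%, 0.475% and 0.603% of all. A match is a description of the letters only. The promoters of Nfkbia and Cxcl10 are shown because these genes of the inflammatory list had a match, and no direction is read from that list. Capitals mark the match to the NF-kB motif in Nfkbia and to the interferon-stimulated response element in Cxcl10, whose AP-1 match is left in lower case. Both marked matches lie on the reverse strand of the letters given, 29 bases before the start in Nfkbia (chr12:55492598-55492897, minus strand) and 213 before it in Cxcl10 (chr5:92348840-92349139, minus strand).
Nfkbia: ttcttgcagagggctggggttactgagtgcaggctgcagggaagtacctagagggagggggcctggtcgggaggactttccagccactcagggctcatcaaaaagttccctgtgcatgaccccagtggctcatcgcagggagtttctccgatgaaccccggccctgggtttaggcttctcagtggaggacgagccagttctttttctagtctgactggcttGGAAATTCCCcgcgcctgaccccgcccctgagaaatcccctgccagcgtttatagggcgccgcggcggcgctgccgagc
Cxcl10: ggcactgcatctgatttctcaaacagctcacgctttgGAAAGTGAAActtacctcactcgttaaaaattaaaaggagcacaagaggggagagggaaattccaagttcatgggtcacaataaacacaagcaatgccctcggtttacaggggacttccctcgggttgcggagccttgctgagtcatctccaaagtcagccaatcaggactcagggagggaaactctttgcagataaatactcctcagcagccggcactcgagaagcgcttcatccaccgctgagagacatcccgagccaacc

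Genes of energy metabolism split by genome. All 13 mitochondrially encoded genes were higher in the JPI-289 cells, with a median log2 ratio of 0.49, and together took 893 and 1221 UMIs per 10000. Of 86 nuclear genes of the respiratory chain 79 had enough UMIs. Of these 75 were lower, 7 by 2-fold or more and none higher by as much, with a median of -0.60. Of all 4370 genes 2146 were lower and 10.0% were 2-fold lower, a share that the 7 do not exceed. Atp5g1, a subunit of the ATP synthase, was lowest, with 413 and 220 UMIs and a ratio of -1.36 (-1.61 to -1.12), and Atp5g3, another subunit, had 865 and 736 and a ratio of -0.69 (-0.83 to -0.54). In cells with at most 20% mitochondrial UMIs the median of the nuclear genes was -0.61, and after scaling to nuclear UMIs -0.54. In distal convoluted and connecting tubule barcodes 58 of 79 of these genes were lower, with a median of -0.10, and in principal cells 70 of 80, with a median of -0.28. The median over all genes was 0.15 in the former barcodes and -0.03 in the latter. Of the 13 mitochondrially encoded genes 8 were higher in the former, with a median of 0.06, and 12 in the latter, with a median of 0.35. Glycolysis had a median of -0.42 over 13 genes, with the glucose carrier Slc2a1 (102 and 50 UMIs) and Pgam1 (90 and 56) 2-fold lower, and Pkm, pyruvate kinase, at 194 and 492 UMIs highest, a ratio of 0.89 (0.64 to 1.13). Fatty acid oxidation had a median of -0.51 over 18 genes, 3 of them 2-fold lower (Cpt2, Hadh and Eci1), while Cpt1a, which encodes its entry enzyme, had 45 and 118 UMIs, a ratio of 0.93 (0.43 to 1.46).

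Proteasome and cytosolic ribosomal protein genes had medians of opposite sign, both within the quartiles of all genes, -0.46 and 0.58. Of all genes 12.2% were 2-fold higher and 10.0% 2-fold lower, and the 2-fold counts below do not exceed these shares. Of 43 proteasome genes 38 had enough UMIs, 33 were higher, 4 of them 2-fold or more (Psma4, Psmc1, Psmd1 and Psmd12), and the median log2 ratio was 0.54. Psma4, a subunit of the core particle, had 23 and 77 UMIs, a ratio of 1.27 (0.60 to 2.03), and Psmb5, a catalytic subunit, 121 and 167, a ratio of 0.01 (-0.34 to 0.36). Of 78 cytosolic ribosomal protein genes 65 were lower, none by 2-fold, with a median of -0.23. In distal convoluted and connecting tubule barcodes the proteasome median was 0.76 and the ribosomal one 0.22, with all genes at 0.15. In principal cells they were 0.30 and -0.32, with all genes at -0.03.

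Stress genes varied within each list. Immediate early genes had a median log2 ratio of -0.31 over 19 genes, with Atf3, Klf6, Dusp1, Ccn1 and Ccn2 2-fold lower and Klf2 higher, but the sign of the median was not kept in cells with at least 1% of Umod and Slc12a1, where it was 0.51 on 29 saline and 51 JPI-289 cells. Fos, the most abundant by UMIs, had 519 in 21 cells and 536 in 22. Heat shock genes had a median of 0.12 over 13 genes, and Hspa1a, an inducible chaperone, had 311 and 127 UMIs, of which a single saline cell held 78.8%, and its ratio of -1.74 was -0.10 without the top cells. Of the 66 UMIs of Klf2 in JPI-289 cells 1 cell held 57.6%. Genes of the integrated stress and unfolded protein response had a median of 0.21 over 16 genes, with Slc3a2, an amino acid carrier subunit (41 and 142 UMIs), and Herpud1 2-fold higher and Ddit3 and Nupr1 lower. A single saline cell held 80% of the 20 UMIs of Ddit3, and without the top cells its ratio was 0.45.

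Of genes against oxidative stress and of iron storage, Fth1, the ferritin heavy chain, had 6793 and 18699 UMIs, a level of 218 (213 to 223) and 437 (431 to 444) per 10000 and a log2 ratio of 1.01 (0.97 to 1.05). Free RNA held 253 and 347 UMIs of Fth1 per 10000, and with it subtracted the ratio was 1.02. The list had a median of 0.24 over 15 genes, and Osgin1 was 2-fold lower with 23 and 4 UMIs. A single saline cell held 56.5% of the 23, and without the top cells the ratio of Osgin1 was -2.06 in place of -2.84. The metallothioneins Mt1 and Mt2, which bind zinc and copper, had 7434 and 12797 and 867 and 1736 UMIs, ratios of 0.33 (0.29 to 0.37) and 0.55 (0.43 to 0.67). Of 17 basement membrane and integrin genes 11 had enough UMIs, with a median of -0.52, with Col4a1 and Col4a2 2-fold higher and Col4a3 and Itga3 lower. In JPI-289 cells 1 cell held 47.6% of the 63 UMIs of Col4a1 and 48.3% of the 29 of Col4a2, and without the top cells their ratios were 0.71 and 0.84. Endothelial barcodes held 14 and 21.4 UMIs of Col4a2 per 10000, against 0.257 and 0.678 here. The part of endothelial RNA in this was not tested.

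**Figure D3:**
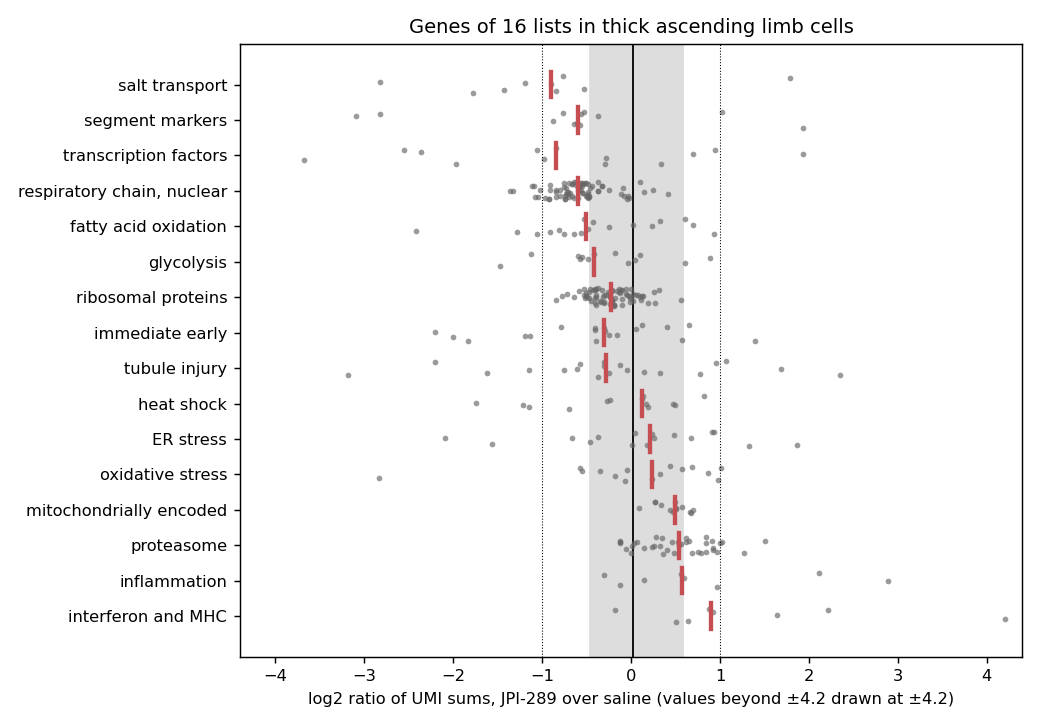
Log2 ratio of UMI sums, JPI-289 over saline, of single genes (grey points) of 16 lists in thick ascending limb cells, with each list's median as a red bar. The grey band spans the quartiles of all 4370 genes, from -0.46 to 0.58, the black line is their median of 0.019 and dotted lines mark 2-fold. Ifit1, with no saline UMI, is drawn at the right edge. Medians run from -0.90 for salt transport to 0.90 for interferon and antigen presentation genes.

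Beside the distal convoluted and connecting tubule, the segment next to this one, some values went the same way and others not, and these differences were not tested. Salt transport genes had a median log2 ratio of -0.91 in distal convoluted and connecting tubule barcodes, 7 of 9 being lower, of -0.45 in principal cells and of -0.90 here, each over the 9 genes with enough UMIs in that class, which are not all the same genes. Fxyd2 and Sostdc1 had ratios of -0.91 (-1.01 to -0.81) and -2.31 (-3.78 to -1.26) in distal convoluted and connecting tubule barcodes. Lcn2 had a log2 ratio of 1.07 here and -1.56 (-1.71 to -1.41) in distal convoluted and connecting tubule barcodes, with 2006 and 466 UMIs there, and -0.77 (-0.81 to -0.72) in principal cells. Clu was at -3.18 here, -0.25 (-0.38 to -0.12) in distal convoluted and connecting tubule and -0.30 (-0.35 to -0.25) in principal cell barcodes. Kcnj1 was low in all of them, with 62 and 1 UMIs in distal convoluted and connecting tubule and 40 and 8 in principal cell barcodes. S100g had a ratio of 1.98 in distal convoluted and connecting tubule barcodes and -2.52 here.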

How the data were processed

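Single-cell RNA sequencing (10x Chromium 5′) was done on 1 kidney sample of each condition. The authors counted UMIs with Cell Ranger on the mm10 mouse reference (version 5.0.1 per the submitters' processing notes) and deposited raw counts of every barcode, with no cell calling. The libraries hold 38328760 and 35548396 UMIs over 32285 genes. Rows of the same symbol were summed.

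Cells were selected by the rule given above. The cells and gene lists were chosen with earlier results of these data known. UMIs were summed over the cells of a library and divided by all their UMIs, and 0.5 was added to each sum before the log2 ratio. Genes with at least 20 UMIs over both libraries were used. Intervals are exact Poisson (levels), exact binomial of both counts (ratios) and Clopper-Pearson (shares). Shares of cells were taken after thinning to 1000 UMIs. No doublet caller was run; 0 cells met a rule of another class. Distal convoluted and connecting tubule, principal, proximal, endothelial and neutrophil barcodes were taken by marker rules and left out when they met another.

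Genes named are fixed markers, the 12 highest and 12 lowest ratios among genes with at least 100 UMIs, leaving out unnamed clones, and, per list, the 2 with most UMIs and the highest and lowest; genes named because a count held 5 or fewer, and further list members given for their role, were chosen after their values were seen. Coordinates are GENCODE vM21 (GRCm38), matched by Ensembl identifier for 114 of 114 named genes. Steps were tested on simulated data. Of 18 alternatives, 5 were added after seeing the data. Python 3.11.15, numpy 2.4.6, scipy 1.17.1, pandas 2.3.3 and matplotlib 3.10.9 were used. The values of some genes are not reported here.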

Additional observations from a re-analysis of the deposited data

How the results depend on the processing

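The counts of 2-fold genes stayed within 1.5 times of 531 and 437 except where the gene minimum or depth changed the genes tested. With at least 100 UMIs they were 57 and 67 of 835 genes (6.83% and 8.02%), with at least 5 UMIs 1321 and 1344 of 8642, and thinned to 1000 UMIs 57 and 56 of 651. The median of all genes was -0.101, -0.017 and -0.124 there, 0.072 scaled to nuclear genes and 0.054 without the cell with most UMIs of each gene. At least 1% of Umod and Slc12a1 left 29 saline cells, and the medians were then 0.51 for immediate early genes, -0.16 for ribosomal proteins and -0.73 for the respiratory chain, with Ccn1 at 0.58 and Ccn2 at 2.63; the cause was not tested. Ribosomal proteins were at -0.18 scaled to nuclear genes. The respiratory chain was at -0.47 with equal weight of cells, -0.52 thinned and -0.53 without the top cells. Thinning turned Nfat5 to -0.06, Klf2 to -0.18 and Col4a2 to -0.06. Choosing by Umod alone, added after seeing the data, gave 147 JPI-289 cells. Other alternatives added then turned Aqp1 to -0.38 (without 2 cells high in Ctla2a) and Hspa1a to 0.25 (without cells under 2% Spp1). Of 216 values of leading results 196 stayed within the interval or within 1.5 times. Among the 196 are 13 from a limit of 0.1% on Slc12a3 and Calb1 and 13 from leaving out doublet-like cells. Neither removed a cell, so these values could not move. Of the 18 alternatives, 4 left every gene's own ratio as it was by construction or because no cell was removed, and say nothing about its stability. No paired analysis was possible because each group has 1 library.

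With 1 mouse per condition, differences between mice, dissociation and treatment cannot be told apart. The cells of both libraries are those in which Slc12a1 was detected, and 46 and 67 cells leave genes under about 20 UMIs unmeasured.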

Other observations

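In the saline library the 19 cells with at least 1% Klk1 and the other 27 had Kcnj1 at 2.41 and 2.33 UMIs per 10000, Clu at 78.4 and 99.8, S100g at 11.9 and 9.65, Sostdc1 at 3.24 and 1.68 and Fxyd2 at 132 and 81.1. A single cell of the 27 held 996 of their 1542 UMIs of Clu, so the order for Clu is not read. For S100g it is not read either, since 1 saline cell held 118 of 336 UMIs. Cells with cortical claudins only held 220 UMIs of Klk1 per 10000, those with Cldn10 only 244, those with both 117 and those with neither 69.1. In the JPI-289 library Foxq1 had 38 UMIs in cells with cortical claudins only, 1 in those with Cldn10 only, 0 in those with both and 26 in those with neither.

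The amount of free RNA in the cells, estimated from haemoglobin, neutrophil and endothelial genes, was 1.69% of UMIs in the saline and 2.34% in the JPI-289 library. Endothelial genes alone gave 4.29% and 19.8%, and 2 JPI-289 cells with 218 and 31 UMIs of Ctla2a held 8 and 3 UMIs of Emcn.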
